A study of Mus musculus with 10 samples.

Results

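The 10 genes described here encode the pathway through which leukemia inhibitory factor (LIF) signals to mouse embryonic stem cells: the receptors Lifr and Il6st, the kinases Jak1 and Jak2, the transcription factor Stat3, the phosphatase Ptpn11, the feedback inhibitors Socs1, Socs2 and Socs3, and the kinase Pim1. They were taken by name from a table of length-scaled transcript abundance (TPM) for 55401 genes, and all 10 were found in it. LIF binds LIFR, which pairs with the shared signal transducer gp130, the product of Il6st, and the JAK kinases held by these receptor chains then phosphorylate STAT3. Phosphorylated STAT3 enters the nucleus, binds DNA and drives a programme that keeps mouse embryonic stem cells from differentiating. STAT3 also switches on Socs3, whose product blocks the JAKs at gp130 and so closes a negative feedback loop.

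Polyadenylated RNA was sequenced from E14 cells, an established mouse embryonic stem cell line. Wild-type E14 cells gave 4 libraries, in 2 sets of 2, and E14 cells carrying the Y347A change in ANKRD11, made by CRISPR/Cas9 editing, gave 6 libraries, in 3 sets of 2. The ANKRD11 protein acts in the nucleus, where it binds regulators of chromatin. All libraries were labelled as untreated and as embryo tissue. What distinguishes a set (a clone, a culture or a day) is not stated, and neither is the culture medium or its LIF. The p-values between genotypes therefore measure only the spread between these sets, which may be technical.

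A library held 12473 to 12812 genes at 1 TPM or more. Sequencing depth is unknown because TPM values keep no read totals. Ankrd11 itself ranged from 57.96 to 66.03 TPM in wild-type libraries and from 53.38 to 68.98 TPM in mutant libraries, with a log2 difference of -0.06 ± 0.10 (SE, limma adjusted p = 0.686). A single amino acid change need not alter RNA level, so this value does not check the genotype labels. All 6 embryonic stem cell markers were expressed, with summed levels of 3003 to 3209 TPM in wild-type and 2634 to 2937 TPM in mutant libraries. They did not move together: Nanog (-0.68, limma adjusted p = 0.00674) and Zfp42 (-0.50, 0.0419) fell, Esrrb (0.28, 0.0365) and Tdgf1 (0.30, 0.0269) rose, and Pou5f1 and Sox2 were not called. Fibroblast feeder markers summed to 54.7 to 63.3 TPM in wild type and 36.8 to 48.3 TPM in mutant cells, with Postn and Dcn at 0 in every library and 7 of 9 markers below 1 TPM throughout. Cald1 alone gave 52.6 to 58.7 TPM and 34.7 to 46.8 TPM of these sums. All 6 primitive endoderm markers and all 5 blood and macrophage markers stayed below 1 TPM in every library, and 3 of 6 trophoblast markers reached a mean of 1 TPM, with sums of 13.7 to 20.8 TPM in wild type and 19.6 to 29.6 TPM in mutant cells. Tfap2c alone gave 10.23 to 17.99 TPM and 15.54 to 26.21 TPM of the trophoblast sums, overlapping ranges. It was not called (limma adjusted p = 0.159), and neither were the other trophoblast markers tested. The part of these differences in the results below was not tested.

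The promoter windows of Socs3 and Stat3 are printed because these genes showed the largest differences among the 10. Each window holds the 250 bases before the RefSeq start, on build GRCm38 (mm10), read 5′ to 3′ on the minus strand. Socs3 lies at chr11:117966079-117970047 and its window at chr11:117969367-117969616. Stat3 lies at chr11:100885098-100939540 and its window at chr11:100939541-100939790. Capitals mark TTCNNNGAA, the palindromic core that STAT factors bind.

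Socs3: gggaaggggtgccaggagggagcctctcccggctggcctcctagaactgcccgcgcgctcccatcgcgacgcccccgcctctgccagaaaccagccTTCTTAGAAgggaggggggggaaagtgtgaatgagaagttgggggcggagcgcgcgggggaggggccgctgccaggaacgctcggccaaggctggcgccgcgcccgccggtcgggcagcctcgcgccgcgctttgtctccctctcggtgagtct

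Stat3: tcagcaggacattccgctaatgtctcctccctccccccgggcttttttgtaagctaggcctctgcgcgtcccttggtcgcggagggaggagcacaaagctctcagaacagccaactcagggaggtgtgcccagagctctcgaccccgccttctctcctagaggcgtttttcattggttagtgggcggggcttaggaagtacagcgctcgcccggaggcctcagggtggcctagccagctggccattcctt

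The core occurred in 1 of 11 windows of the 9 members that had one in RefSeq, and that window was Socs3's; Socs2 had none. TTCTTAGAA in Socs3 spans chr11:117969512-117969520, ahead of the RefSeq start at base 117969366 and 326 to 334 bases ahead of the start of the coding Socs3 transcript in GENCODE. The window also overlaps an exon of a noncoding Socs3 transcript at bases 117969375 to 117969451, and the match lies outside it. Among 32851 RefSeq promoter windows of the same length, 7.02% held TTCNNNGAA. The stricter TTCCNGGAA, a subset of the first motif, occurred in 0.91% of all windows and in none of the members'. For Socs3 the window leaves out the 180 bases between the RefSeq start and the coding transcript's start. That stretch was not searched for either motif. The palindromes read the same on both strands, and a match in the letters is not a measured binding site.

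Of the 10 genes, 3 rose in ANKRD11 Y347A cells (Socs3, Stat3 and Socs2) and 2 fell (Jak1 and Pim1). Lifr, Il6st, Jak2 and Ptpn11 did not pass the test, and Socs1 lay below the expression filter of a mean of 1 TPM. A gene was called where its log2(TPM + 1) means differed over sets, 2 against 3, with a limma adjusted p (Benjamini-Hochberg over 12797 tested genes) under 0.05. By this rule 6.97% of all tested genes rose and 10.5% fell, beside 3 and 2 of the 9 tested members. The members were listed with earlier results of these data known, among them a large Socs3 difference. The counts are therefore not a test of the list. At an unadjusted p under 0.05 the shares of all tested genes were 14.5% higher and 20.5% lower, and 3 members lay on each side. Both lower calls were lost after median-of-ratios rescaling, after quantile normalization and with no filter on low values. The median log2 difference was -0.06 over the 9 members and -0.04 over all tested genes. For 3 members all 6 mutant libraries lay above all 4 wild-type libraries, as for 12.4% of all tested genes, and for 4 members (Il6st, Jak1, Ptpn11 and Pim1) they lay below, as for 19.4%. Across all genes 892 rose and 1350 fell on the deposited scale. The split was 1096 and 1064 after median-of-ratios rescaling and 1073 and 1039 after quantile normalization. RNA from bulk cells cannot tell fewer cells of a type from less RNA per cell.

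**Figure D1:**
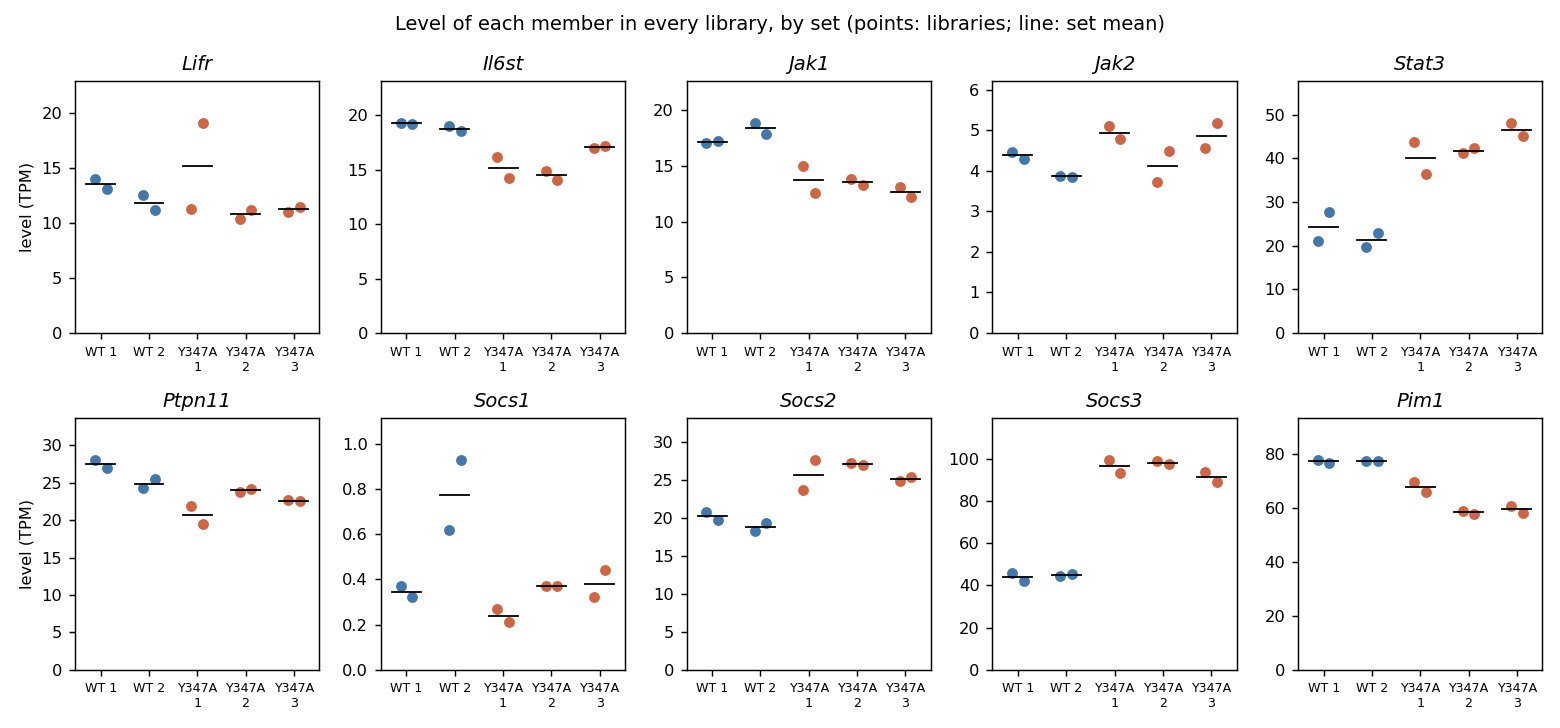
TPM of each of the 10 genes in every library (points), by set, with wild-type libraries in blue, ANKRD11 Y347A libraries in orange and a line at each set mean; the vertical scale differs by gene. Socs3 sits between 41.9 and 46.0 TPM in wild type and between 88.8 and 99.5 TPM in mutant libraries, while Lifr and Jak2 overlap between genotypes.

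The receptor chains did not pass the test. Lifr, at chr15:7090614-7197489, encodes the chain that binds LIF. Its levels were 14.0, 13.1, 12.5 and 11.2 TPM in the wild-type libraries, and the lowest, median and highest mutant libraries had 10.4, 11.3 and 19.1 TPM. The groups overlapped, and 1 mutant library, the second of set 1, stood above all the others. The log2 difference was -0.06 ± 0.15 (SE, 95% interval -0.41 to 0.30, limma adjusted p = 0.814), and it was -0.17 ± 0.10 without that library (adjusted p = 0.265).

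Il6st, at chr13:112464070-112510086, encodes gp130, the signalling chain shared by LIF, interleukin-6 and related cytokines. It measured 19.3, 19.2, 19.0 and 18.6 TPM in wild type, against 14.1, 15.5 and 17.2 TPM as the lowest, median and highest mutant values. Every mutant library lay below every wild-type library. The log2 difference of -0.28 ± 0.10 (95% interval -0.52 to -0.04) had a limma adjusted p of 0.103. Beside the receptors, 7 of 13 other ligands and receptors of the family were tested, and 0 were called by limma in either direction, with 0 at an unadjusted p under 0.05 and a median log2 difference of 0.20. Lif and Osm, which encode ligands, had the smallest p among them. Lif measured 1.27 ± 0.357 TPM in wild type and 2.02 ± 0.346 TPM in mutant cells (mean ± SD of 2 and 3 set means), a log2 difference of 0.40 ± 0.19 (adjusted p = 0.176). Osm measured 5.12 ± 0.0141 and 4.48 ± 0.328 TPM, a log2 difference of -0.16 ± 0.12 (adjusted p = 0.389).

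Of the kinases, Jak1 fell and Jak2 was not called. Jak1, at chr4:101152367-101265282, encodes the principal JAK at gp130. Wild-type libraries held 17.1, 17.2, 18.8 and 17.9 TPM, and mutant libraries ran from 12.2 through a median of 13.2 to 15.0 TPM. The ranges did not meet. Mean levels were 17.7 ± 0.859 TPM in wild type and 13.3 ± 0.595 TPM in mutant cells, a log2 difference of -0.39 ± 0.09 with a limma adjusted p of 0.0339. The call was not held throughout: the adjusted p became 0.135 or 0.218 when wild-type set 1 or 2 was dropped, and 0.0806 or 0.0847 when mutant set 1 or 3 was dropped. It was also lost without the second library of mutant set 1 (adjusted p = 0.0641), after median-of-ratios rescaling (0.0523), after quantile normalization (0.0507) and with no filter (0.0653).

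Jak2, at chr19:29251828-29313080, encodes another JAK that binds cytokine receptors. Its wild-type levels were 4.47, 4.29, 3.88 and 3.86 TPM, and the mutant libraries ranged from 3.72 through a median of 4.67 to 5.18 TPM. The groups overlapped, since the first library of mutant set 2 was the lowest of all 10. The log2 difference was 0.13 ± 0.14 (95% interval -0.18 to 0.45, limma adjusted p = 0.508). The ratio of Jak1 to Jak2 TPM was 3.82 to 4.86 in wild-type and 2.35 to 3.70 in mutant libraries. Summed over Jak1, Jak2, Jak3 and Tyk2, JAK transcripts amounted to 44.9 to 47.5 TPM and 41.6 to 49.2 TPM, overlapping ranges. Within this sum Jak1 took 37.8% to 39.7% in wild-type and 28.4% to 32.0% in mutant libraries. Jak3, the JAK of the common gamma chain, took 16.8% to 21.4% and 22.2% to 27.6%. Its own level was 7.55 to 10.2 TPM in wild-type and 9.5 to 12.9 TPM in mutant libraries, which overlapped. Jak3 was not called (log2 difference 0.32, limma adjusted p = 0.139).

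Stat3 rose, to a mean 1.88 times that of wild type. It encodes the transcription factor through which LIF sustains self-renewal. The wild-type libraries measured 21.1, 27.6, 19.6 and 22.8 TPM, and the mutant libraries 36.5, 43.0 and 48.1 TPM as lowest, median and highest. All mutant libraries lay above all wild-type libraries, and within wild-type set 1 the second library was well above the first. The log2 difference was 0.89 ± 0.10 (95% interval 0.65 to 1.13, limma adjusted p = 0.00617), rank 192 from the top among 12797 genes. Without wild-type set 2 it was 0.79 and was no longer called (adjusted p = 0.0788). The 3′ end of Stat3 overlaps Stat5a on the opposite strand by 72 bases, and the sources used here give no strand setting for the counting. Stat5a was low, at 1.16 to 1.89 TPM in wild-type and 1.87 to 3.45 TPM in mutant libraries.

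All 7 other JAK and STAT genes on the list were tested, with a median log2 difference of 0.32. By limma 1 rose and 0 fell (4 and 0 at an unadjusted p under 0.05). Of all tested genes 6.97% rose and 10.5% fell (14.5% and 20.5% at an unadjusted p under 0.05). The list was made with earlier results of these data known. The 1 listed gene that rose was Stat5b, the STAT of growth hormone and related cytokines. It went from 2.31 ± 0.477 to 3.99 ± 0.427 TPM (log2 difference 0.60 ± 0.16, adjusted p = 0.0429). The call was lost on dropping any 1 of the 5 sets, with adjusted p from 0.0513 to 0.214. It was also lost without the first library of wild-type set 1, either of mutant set 1, the second of mutant set 2 or the first of mutant set 3 (0.0503 to 0.0622), with the GC correction (0.0540) and with no filter (0.127). Stat6, the transcription factor of interleukin-4 signalling, lay higher in all 6 mutant libraries with an adjusted p of 0.0516; it was named after its values were seen.

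Ptpn11 was not called. The gene, at chr5:121130533-121191397, encodes SHP2, the phosphatase that docks on gp130 and links it to the ERK kinases. Wild-type libraries had 28.1, 27.1, 24.4 and 25.5 TPM, and mutant libraries 19.5, 22.6 and 24.2 TPM as lowest, median and highest. The mutant values all lay below the wild-type values, but the highest mutant and the lowest wild-type library were neighbours. The log2 difference was -0.22 ± 0.10 (95% interval -0.45 to 0.02, limma adjusted p = 0.167). In the list of 14 adaptor, ERK-arm and ERK feedback genes that includes Ptpn11, 1 rose and 1 fell, with a median of -0.17. Over all tested genes the shares were 6.97% higher and 10.5% lower. Shc1, an adaptor that recruits the Ras pathway, rose from 54.3 ± 2.23 to 72.3 ± 1.82 TPM (log2 difference 0.41 ± 0.07, adjusted p = 0.0158). Etv4, an ETS factor induced by ERK signalling, fell by 0.96 ± 0.14 on the log2 scale (adjusted p = 0.00980), from 30.2 ± 0.378 to 15.2 ± 2.73 TPM. Both calls were lost on dropping wild-type set 1 (adjusted p = 0.0853 for each) or set 2 (0.140 for Shc1 and 0.113 for Etv4). Shc1 was also lost on dropping mutant set 1 (0.0523). The other ERK feedback targets on the list were not called and went both ways. Dusp4 (0.40), Spry4 (0.32), Etv5 (0.15) and Spry2 (0.13) lay higher, and Spred2 (-0.26), Dusp6 (-0.21) and Spred1 (-0.17) lower. All mutant libraries lay above all wild-type libraries for Etv5 and below them for Spred2. These targets were named after their values were seen.

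Socs3 changed most among the 10 genes. Its product binds gp130 and JAK and ends STAT3 signalling. Wild-type levels were 46.0, 41.9, 44.6 and 45.4 TPM, and the lowest, median and highest mutant levels were 88.8, 95.4 and 99.5 TPM. The groups did not overlap, and the mutant sets were close to one another, with means of 96.4, 98.1 and 91.2 TPM. The log2 difference of 1.08 ± 0.07 (95% interval 0.91 to 1.25, limma adjusted p = 0.00195) ranked 93 from the top among 12797 genes. Socs3 has the highest transcript GC content of the 10 genes, 62.9%, and with a GC correction the difference was 0.98 (adjusted p = 0.00342).

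Socs2 rose by less. The gene, at chr10:95385362-95417180, encodes an inhibitor best known for limiting growth hormone signalling. Its levels were 20.8, 19.8, 18.3 and 19.4 TPM in wild type and 23.6, 26.2 and 27.7 TPM as lowest, median and highest in mutant libraries. The groups did not overlap. Means were 19.6 ± 0.997 and 25.9 ± 1.03 TPM, a log2 difference of 0.39 ± 0.09 with a limma adjusted p of 0.0281. The call was lost on dropping wild-type set 1 or 2 (adjusted p = 0.115 or 0.189) or mutant set 1 or 3 (0.0762 or 0.0615), and with no filter on low values (0.0568).

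Socs1, at chr16:10782240-10785536, encodes the inhibitor best known from interferon signalling and was close to undetected. Wild-type libraries held 0.37, 0.32, 0.62 and 0.93 TPM and mutant libraries 0.21, 0.345 and 0.44 TPM as lowest, median and highest. The ranges overlapped. With no filter on low values the log2 difference was -0.22 ± 0.13 (95% interval -0.56 to 0.13, limma adjusted p = 0.419).

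Summed over Socs1 to Socs7 and Cish, SOCS-family transcripts amounted to 99.1 to 107 TPM in wild-type and 151 to 162 TPM in mutant libraries. Socs3 made up 40.5% to 45.0% of this sum in wild type and 57.1% to 64.1% in mutant cells. Socs6, which had the next largest share in every wild-type library, went from 20.0% to 23.8% to 9.07% to 13.6% of the larger sum. Its own level was 19.9 to 24.7 TPM in wild-type and 13.7 to 21.1 TPM in mutant libraries, which overlapped, and it was not called (log2 difference -0.36, limma adjusted p = 0.134). Among the 12 other SOCS-box genes and negative regulators, 11 were tested, with a median log2 difference of 0.06. By limma 2 rose and 2 fell, beside 6.97% and 10.5% of all tested genes. Socs5 rose from 2.22 ± 0.346 to 3.97 ± 0.0388 TPM (log2 difference 0.64 ± 0.14, limma adjusted p = 0.0269). Pias4, a SUMO ligase that restrains STAT activity, rose from 37.2 ± 0.689 to 48.5 ± 3.79 TPM (0.37 ± 0.09, adjusted p = 0.0333). Its relative Pias2 fell from 95.3 ± 5.26 to 71.3 ± 7.11 TPM (-0.42 ± 0.10, adjusted p = 0.0338). Ptpn2, a phosphatase that removes phosphate from JAK1 and STATs, fell from 74.0 ± 1.72 to 57.7 ± 0.806 TPM (-0.35 ± 0.07, adjusted p = 0.0196). Each of these 4 calls was lost on dropping either wild-type set, mutant set 1 or mutant set 3, with adjusted p from 0.0504 to 0.194, and Pias4 also without the first library of mutant set 1 (0.0520). With the GC correction Ptpn2 was -0.22 (adjusted p = 0.0793) and Pias2 -0.30 (0.0503), and neither was called. Pias2 and Pias4 were also lost without a mean-dependent prior (0.0667 and 0.0606), and Socs5, Pias2 and Pias4 with no filter (0.0889, 0.0901 and 0.0727).

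**Figure D2:**
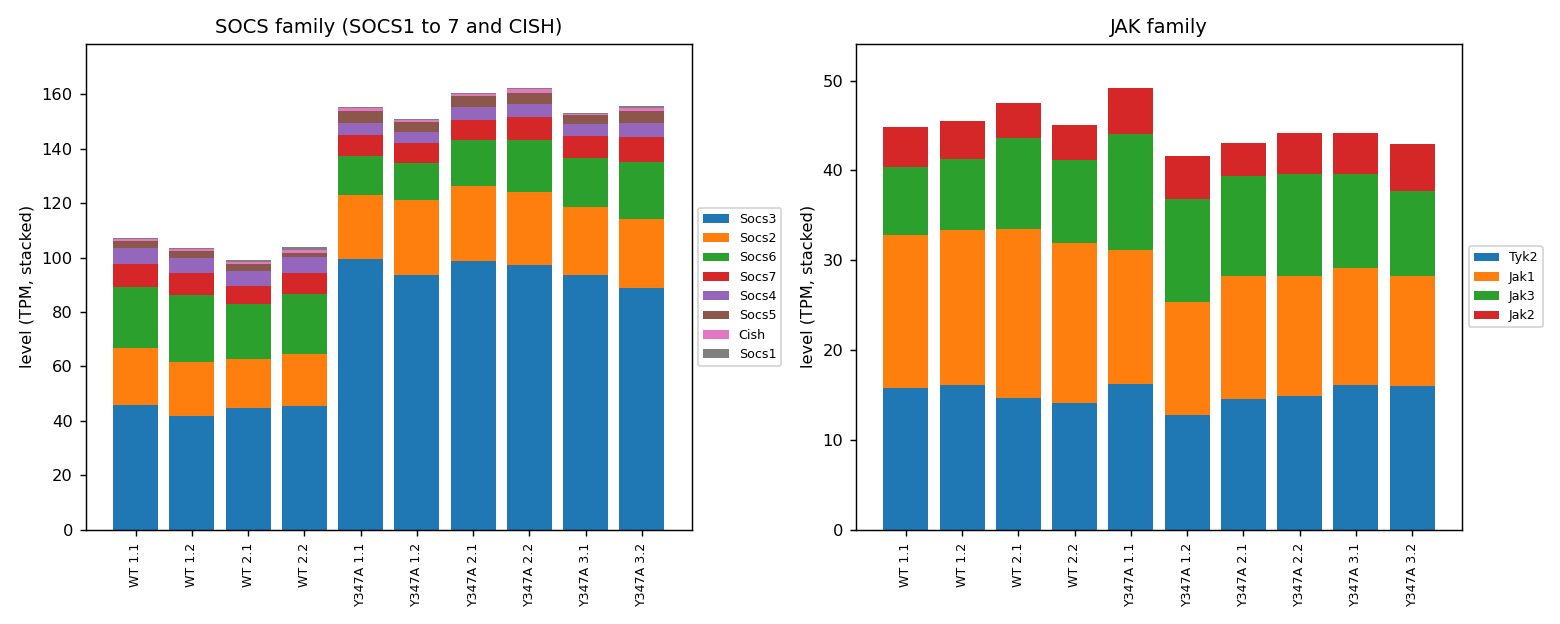
TPM of each SOCS-family gene (left) and JAK-family gene (right), stacked in 1 bar per library, where the numbers after the genotype give the set and the library. The SOCS sum is 99.1 to 107 TPM in wild-type and 151 to 162 TPM in mutant libraries, and the bottom segment, Socs3, fills 40.5% to 45.0% and 57.1% to 64.1% of it; Jak1 fills 37.8% to 39.7% and 28.4% to 32.0% of the JAK sum.

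Pim1 fell. The gene, at chr17:29490753-29496112, encodes a serine/threonine kinase that is a classical STAT3 target and promotes survival. Wild-type levels were 77.7, 76.5, 77.2 and 77.1 TPM, close to one another, and mutant libraries had 57.8, 59.7 and 69.6 TPM as lowest, median and highest. All mutant libraries lay below wild type, and the mutant set means were 67.7, 58.3 and 59.3 TPM, with set 1 nearest to wild type. The log2 difference was -0.32 ± 0.09 (95% interval -0.52 to -0.11, limma adjusted p = 0.0474), close to the threshold. It was -0.28 after median-of-ratios rescaling (adjusted p = 0.0876) and -0.24 after quantile normalization (adjusted p = 0.122). The call was held in 11 of 27 alternative settings and was lost on dropping any set but mutant set 1, or any of 8 single libraries, with no filter (0.0950) and without a mean-dependent prior (0.0883). Gm26885 lies antisense to Pim1 over 1173 bases and measured at most 1.12 TPM.

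Both other PIM kinases were tested and 0 were called by limma, nor at an unadjusted p under 0.05, with a median log2 difference of -0.08. Pim3 measured 59.5 ± 7.41 and 53.7 ± 5.67 TPM (log2 difference -0.14 ± 0.12, limma adjusted p = 0.415). Pim2 was split among the mutant sets, with 4.58 and 4.93 TPM in set 1 and 10.2 to 12.95 TPM in the other two, against 8.16 to 9.32 TPM in wild type. The summed PIM level was 139 to 151 TPM in wild-type and 117 to 134 TPM in mutant libraries. After median-of-ratios rescaling these ranges overlapped, at 134 to 148 and 114 to 138.

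Among 18 other known STAT3 targets, 16 were tested, 3 rose and 0 fell by limma (5 higher and 1 lower at an unadjusted p under 0.05), and the median log2 difference was 0.18. In 5 of the 16 all mutant libraries lay above all wild-type libraries, beside 12.4% of all tested genes, and in 0 they lay below, beside 19.4%. Of all tested genes 6.97% rose and 10.5% fell by limma. The targets were listed with earlier results of these data known. Gbx2, a homeobox factor that supports self-renewal downstream of STAT3, had wild-type values of 15.0 and 15.8 TPM in set 1 and 9.54 and 9.65 TPM in set 2, and mutant values of 27.2 to 34.5 TPM. Its log2 difference was 1.28 ± 0.18 (limma adjusted p = 0.00969). Fos, an immediate early factor, went from 1.16 ± 0.258 to 3.12 ± 0.290 TPM (0.94 ± 0.16, adjusted p = 0.0146). Mcl1, a BCL2-family survival protein, went from 146 ± 3.47 to 210 ± 21.3 TPM (0.52 ± 0.09, adjusted p = 0.0163). Klf4, Klf5 and Tfcp2l1, the pluripotency factors best known as LIF targets, were not called, with log2 differences of 0.17, 0.30 and 0.13 and adjusted p of 0.120, 0.0556 and 0.411. For Klf4 and Klf5 all mutant libraries lay above all wild-type libraries, while the groups overlapped for Tfcp2l1. Klf4, Klf5 and Tfcp2l1 were named after their values were seen. The call of Gbx2 was lost on dropping wild-type set 2 (adjusted p = 0.0730). Fos and Mcl1 were lost on dropping either wild-type set (0.0894 to 0.131), and also mutant set 1 for Fos (0.0546) and mutant set 3 for Mcl1 (0.0522). With no filter on low values Gbx2 (0.0501), Fos (0.0572) and Mcl1 (0.0586) were not called.

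Of 12 interferon targets, 5 were tested and 7 lay below the expression filter. By limma 1 rose and 0 fell (1 and 0 at an unadjusted p under 0.05), with a median of 0.04. The shares of all tested genes were 6.97% and 10.5% (14.5% and 20.5% at an unadjusted p under 0.05). The target that rose was Bst2, which encodes the antiviral membrane protein tetherin. It went from 30.0 ± 3.72 to 62.3 ± 0.876 TPM (log2 difference 1.04 ± 0.09, limma adjusted p = 0.00326).

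**Figure D3:**
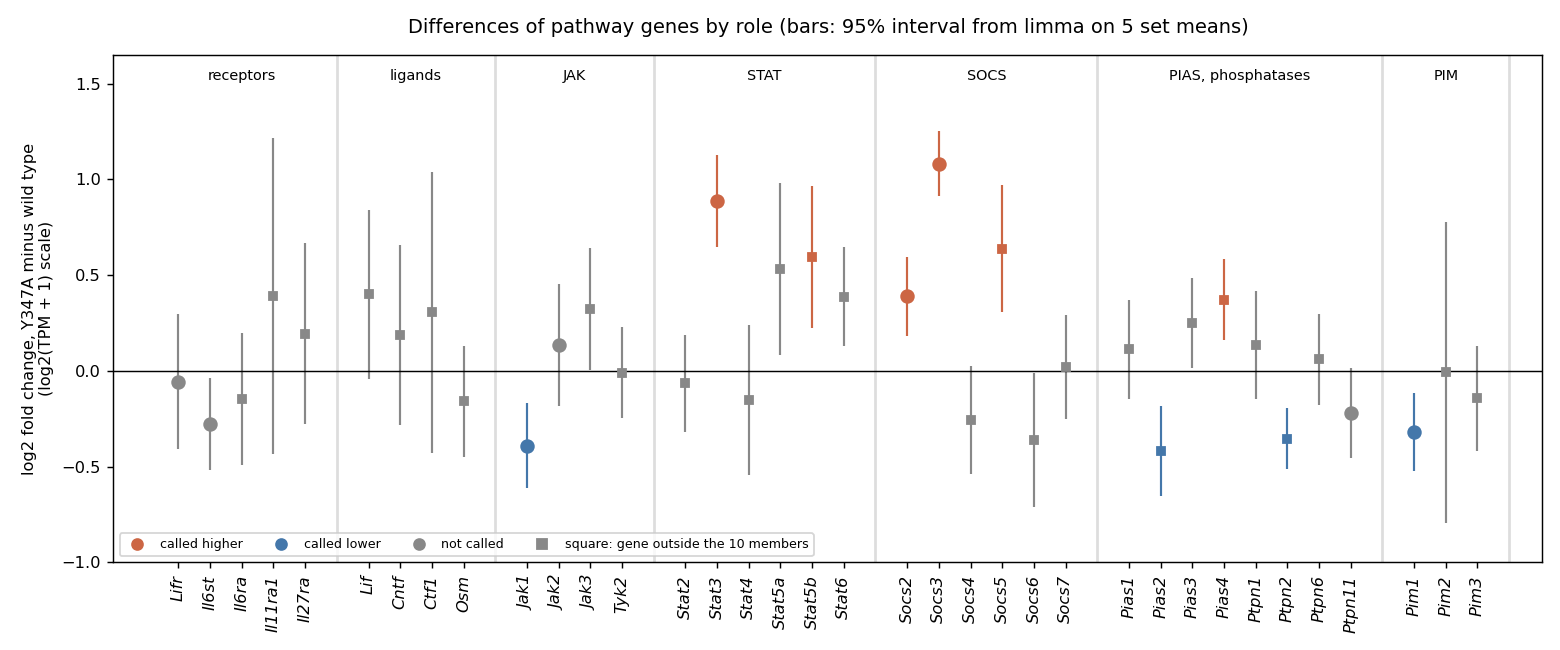
Log2 difference (ANKRD11 Y347A minus wild type, on log2(TPM + 1)) with its 95% interval for pathway genes grouped by role, with circles for members, squares for other genes, orange for genes called higher, blue for genes called lower and grey for genes not called. Socs3 at 1.08 and Stat3 at 0.89 stand highest among the members and Jak1 at -0.39 lowest.

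Ratios between members set the changes side by side within each library. They restate the levels given above and are not a further test. Socs3 exceeded Il6st 2.18 to 2.44 times in wild-type and 5.18 to 6.92 times in mutant libraries. The ratio of Socs3 to Pim1 was 0.548 to 0.592 in wild type and 1.42 to 1.68 in mutant cells, so the order of these genes was the opposite in the mutant. Stat3 was 1.04 to 1.61 times Jak1 in wild type and 2.90 to 3.70 times Jak1 in mutant cells. The ratio of Socs3 to Stat3, which both rose, overlapped, at 1.51 to 2.27 and 1.95 to 2.56. That of Lifr to Il6st overlapped as well, at 0.600 to 0.725 and 0.651 to 1.34. Socs3 was 2.12 to 2.43 times Socs2 in wild-type and 3.38 to 4.21 times in mutant libraries.

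In wild-type cells the levels per transcript length ran, from the highest, Pim1, Socs3, Ptpn11, Stat3, Socs2, Il6st, Jak1, Lifr, Jak2 and Socs1. The neighbours Ptpn11 and Stat3, Stat3 and Socs2, Socs2 and Il6st, and Il6st and Jak1 overlapped over libraries. In mutant cells the order was Socs3, Pim1, Stat3, Socs2, Ptpn11, Il6st, Jak1, Lifr, Jak2 and Socs1. There Socs2 and Ptpn11, Il6st and Jak1, and Jak1 and Lifr overlapped.

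Sets of one genotype were compared as well, over their 2 libraries each. Here the p-values measure against the spread between the 2 libraries of a set, pooled over all sets, which may be technical. Pim1 was the only member that differed between the 3 mutant sets (limma F test, adjusted p = 0.0212), where 19.6% of all tested genes did. Without the mean-dependent prior it was not called (0.0519). The adjusted p of the other 8 tested members ran from 0.107 for Il6st to 0.547 for Jak1. At an unadjusted p under 0.05, 3 of 9 members passed (Pim1, Il6st and Ptpn11), beside 37% of all tested genes. Between the wild-type sets 0 of 9 members were called by limma (lowest adjusted p 0.269, for Ptpn11), where 2.75% of all tested genes were. At an unadjusted p under 0.05, 0 of the 9 passed as well, beside 20.3% of all tested genes.

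Across the 10 libraries the profile of Socs3 in log2(TPM + 1) was most like those of Ndrg1, Pfkfb3, Ephx1, Ercc5 and Hk2, with Pearson r from 0.988 to 0.993. Ndrg1 is a stress-induced gene, Pfkfb3 encodes a regulator of glycolysis and Hk2 a hexokinase, an enzyme of glycolysis. Ephx1 encodes an epoxide hydrolase and Ercc5 a DNA repair nuclease. The profiles least like it were those of Obox6, Cct2, Ipo7, Stk33 and Fabp5, with r from -0.995 to -0.991. Among the members, r with Socs3 was 0.931 for Socs2, 0.929 for Stat3, 0.478 for Jak2, -0.143 for Lifr, -0.753 for Ptpn11, -0.863 for Il6st, -0.880 for Pim1 and -0.898 for Jak1. The 10 points fall into 2 clusters by genotype and share their sets, so these values describe mainly the difference between genotypes.

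**Figure D4:**
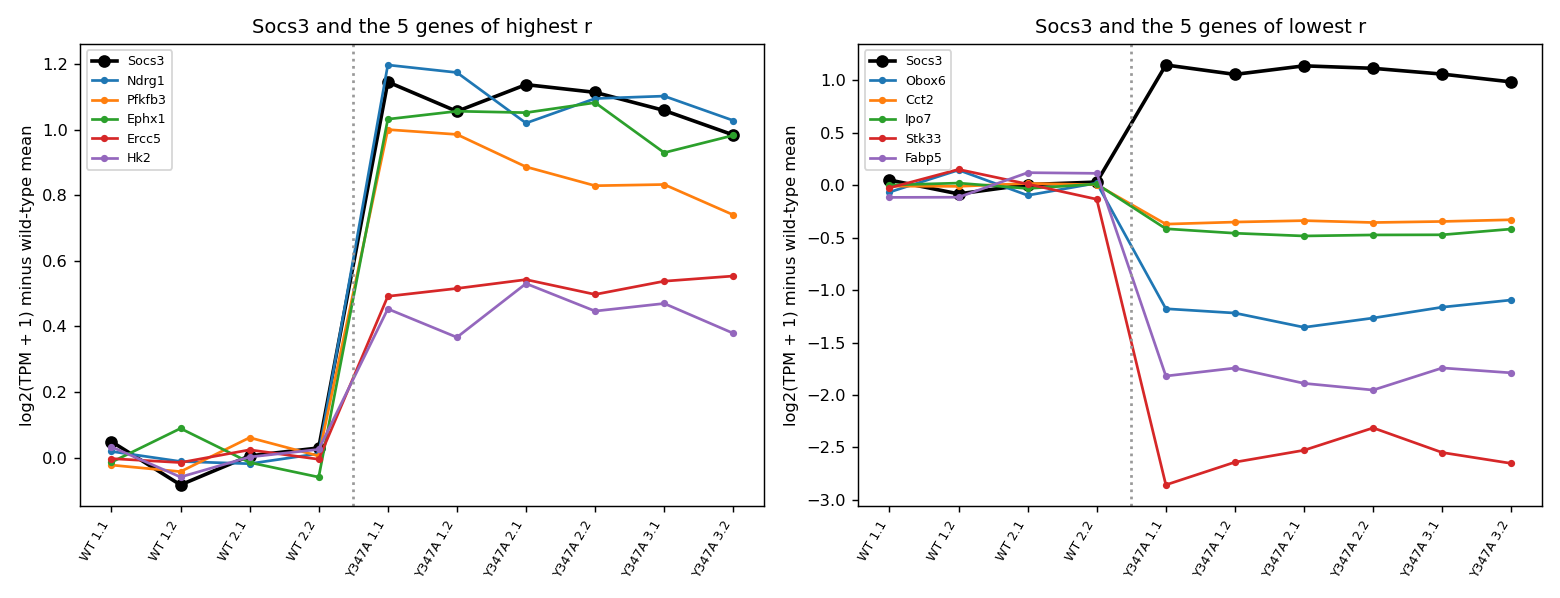
Profiles over the 10 libraries of Socs3 (black) with the 5 genes of highest r (left) and of lowest r (right), as log2(TPM + 1) minus each gene's wild-type mean; a dotted line separates the genotypes. The step between genotypes carries the likeness, with r of 0.988 or higher on the left and of -0.991 or lower on the right.

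Calls for the members were set against up to 27 alternative settings each. Socs3 was called in all 27, with log2 differences from 0.98 to 1.15, and Stat3 in 26. Socs2 was called in 22, Jak1 in 19 and Pim1 in 11. Il6st passed in 4 settings and Ptpn11 in 3, while Lifr and Jak2 passed in 0 of the 27 and 26 run.

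**Figure D5:**
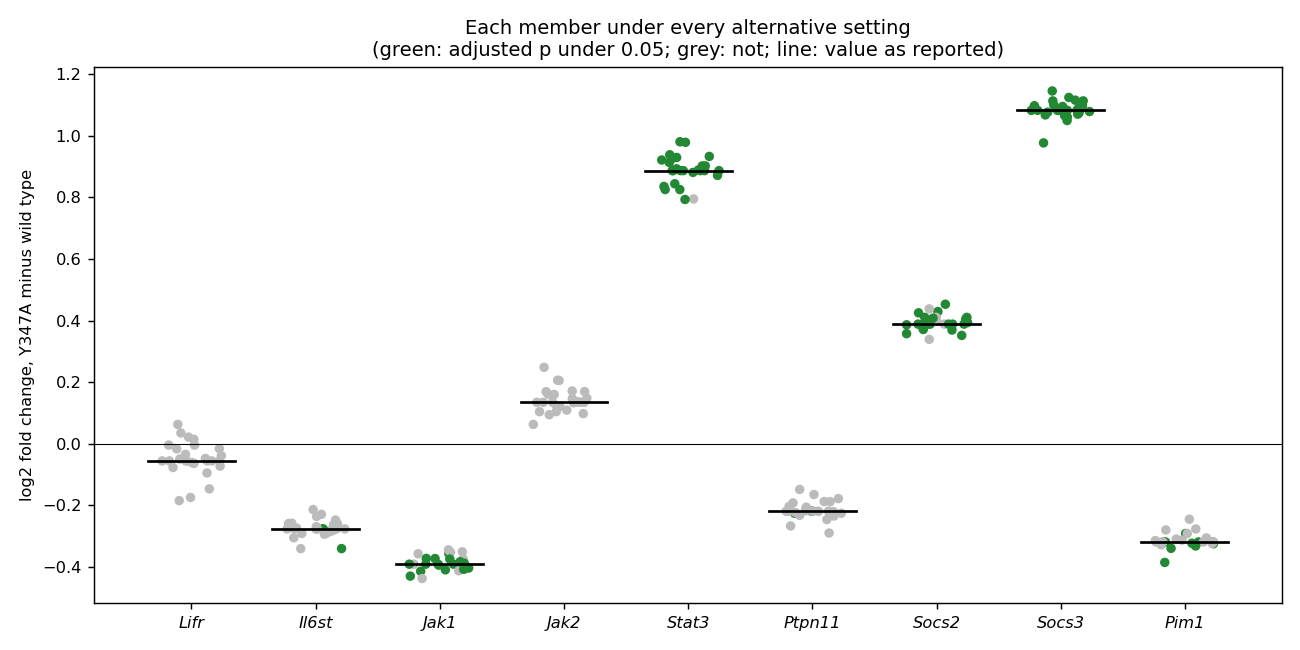
Log2 difference of each tested member (ANKRD11 Y347A minus wild type), with 1 point per alternative setting, green where limma's adjusted p was under 0.05 and grey otherwise, and a line at the reported value. Socs3 stays between 0.98 and 1.15 and is green throughout, and Lifr runs from -0.18 to 0.06 and is grey throughout.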

How the data were processed

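Polyadenylated RNA was sequenced from 4 wild-type and 6 ANKRD11 Y347A libraries of E14 cells, grouped by genotype and set from the sample titles. The authors deposited TPM values per gene (read trimming with Trim Galore, alignment with STAR to mm10, quantification with RSEM and use of DESeq2, per the submitters' processing notes); the sources used here give no versions, annotation or strand setting, and depth is unknown. No per-sample column was left out (0). Libraries were averaged within sets on log2(TPM + 1), and genes averaging 1 TPM or more were compared by genotype with limma 3.58.1 in R 4.3.3, with a mean-dependent prior and Benjamini-Hochberg adjustment at 0.05. Means ± SD are over set means. The code was tested on simulated data. Alternatives changed the pseudocount, filter, scaling, variance model, GC correction, treatment of sets, and libraries left out. Members and lists were chosen with earlier results of these data known, and 1 listed gene is not reported here. Named were all members, the 5 genes most and the 5 least correlated with Socs3, and up to 3 called genes per list and direction by size, or the 2 with the smallest p where none was called. Positions come from GENCODE M21 (GRCm38) and promoters from RefSeq (GRCm38.p6), with 9 of 10 members matched. Plots were made with matplotlib 3.10.9.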

Additional observations from a re-analysis of the deposited data

Results flagged for a closer look

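Lifr measured 19.1 TPM in the second library of mutant set 1, while the other 5 mutant libraries reached at most 11.4 TPM. The gap to the nearest library took up 0.88 of the range of the 6 mutant libraries, above the critical value of Dixon's test for 6 values. Stat5b measured 4.98 TPM in the first library of mutant set 1, where the next highest mutant library had 4.0 TPM and the gap took up 0.685 of the range. These were 2 of 50 groups of libraries examined, and chance alone singles out about 1 in 20.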

How the results depend on the processing

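None of the values recomputed for the 10 genes or the named pathway genes changed sign where it was called. With no filter on low values, 809 genes were called against 2242, the calls of Jak1 (-0.39, limma adjusted p = 0.0653), Socs2 (0.39, 0.0568) and Pim1 (-0.32, 0.0950) were lost, 0 members were called lower, and 1614 genes differed between mutant sets. Median-of-ratios rescaling gave Jak1 -0.35 (0.0523) and Pim1 -0.28 (0.0876), and quantile normalization gave Jak1 -0.37 (0.0507) and Pim1 -0.24 (0.122), with 0 members called lower in each. Treating the 10 libraries as independent gave 5269 genes, with Il6st at -0.28 (0.00686), Ptpn11 at -0.22 (0.0217) and 4 members called lower. With the set as a random term (correlation 0.509) 3398 genes were called and Il6st reached -0.28 (0.0331). With the replicate block, the library number as a term, 4998 genes were called, Il6st was -0.28 (0.0103) and Ptpn11 -0.22 (0.0314), and 4 members were called lower. With the set number as a replicate block these were 5361 genes, -0.34 (0.00114), -0.23 (0.0401) and 4 members. No pairing by either number was seen, though correlations over all genes cannot exclude one. Differences between libraries 1 and 2 correlated at -0.0761 to 0.116 over 10 pairs of sets. The difference of set 1 from set 2 correlated between genotypes at -0.144. Without the mean-dependent prior Pim1 was -0.32 (0.0883), 1 member was called lower, 157 genes differed between wild-type sets and 0 members between mutant sets. On leaving out 1 set or 1 library in turn, the genes called ran from 42 (without wild-type set 2) to 2393 (without mutant set 2). Dropping wild-type set 1 gave 196, mutant set 1 gave 654 and mutant set 3 gave 920; members called higher ran from 1 to 3 and lower from 0 to 2. The log2 differences ran from 1.05 to 1.12 for Socs3, 0.79 to 0.98 for Stat3, 0.34 to 0.44 for Socs2, -0.44 to -0.34 for Jak1, -0.38 to -0.28 for Pim1, -0.34 to -0.23 for Il6st, -0.29 to -0.15 for Ptpn11, 0.06 to 0.21 for Jak2 and -0.18 to 0.06 for Lifr. Fewer sets leave fewer degrees of freedom; other causes were not tested. For the 15 named pathway genes, 348 of 400 values kept their side of the threshold, 51 lost a call and 1 gained one. TPM holds no read totals, so the counting error of low genes such as Socs1 is unknown.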
